A study of Mus musculus with 5 samples.

Results

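The 35 genes described here encode the machinery that carries new secretory and membrane proteins into the endoplasmic reticulum (ER) and starts their N-glycosylation. They were taken by gene symbol from a named list that used no measured value of single genes but was drawn up with earlier results of these data known. It covers the signal recognition particle (SRP), its receptor, the Sec61 translocon and its partners, signal peptidase, oligosaccharyltransferase (OST) and dolichol-phosphate-mannose synthase. All 35 were found among the 53927 gene models of the table, in 36 rows, because the symbol Srp54a stands on 2 gene models. All 35 also passed the filter on low values, which kept 14884 gene models.

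RNA was sequenced from cultured primary nephron progenitors of C57BL/6J mouse embryos, the kidney precursors that renew themselves and give rise to nephrons. There were 2 libraries from Dis3l2+/+ embryos (WT) and 3 from Dis3l2-/- embryos (KO), all from cells passaged 1 time in culture. The sources used here do not state the embryonic age, the deleted part of the gene or whether each library had its own embryos. P-values therefore measure only how far these libraries spread, which can include technical spread.

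Dis3l2 is an exoribonuclease that degrades uridylated RNA from its tail end, and 7SL RNA is among its known substrates. 7SL is the scaffold of the SRP. The SRP binds a signal peptide as it leaves the ribosome, slows translation and docks on its receptor at the ER membrane, where the chain passes into the Sec61 channel. Signal peptidase then removes the signal peptide, and OST transfers a preassembled glycan to the chain. Dolichol-phosphate mannose donates some of the mannoses of that glycan, and also serves GPI anchors and O-mannosylation.

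The libraries differed in depth and in a few abundant RNAs. Assigned reads ranged from 19.61 M in KO replicate 3 to 49.25 M in KO replicate 1. The nuclear RNA Rn7sk took 3.83% and 3.51% of the summed values in WT replicates 1 and 2, and 11.9%, 6.48% and 2.27% in KO replicates 1, 2 and 3. Levels are in CPM (reads scaled to a common library size, as deposited). The noncoding RNA Xist was at 0.93 CPM in WT replicate 1 and 0.52 CPM in KO replicate 3, and at 951, 872 and 765 CPM in WT replicate 2 and KO replicates 1 and 2. Dis3l2 itself was measured at 16.04 and 12.18 CPM in the WT libraries against 6.5, 4.93 and 4.7 CPM in the KO libraries. All 3 KO values were under both WT values (log2 fold change -1.24, SE 0.21, limma, Benjamini-Hochberg adjusted p = 0.954), and the authors' deposited table gives it an FDR of 0.00855. The labelled cell type was checked against 12 progenitor markers, of which 11 were at 0.5 CPM or more in every library. Six2 lay between 18.58 and 31.86 CPM and Eya1 between 167.84 and 274.33 CPM, while Pax2 did not exceed 0.66 CPM. Cited1 varied more, at 15.16 and 1.4 CPM in the WT libraries against 17.05, 4.74 and 2.73 CPM in the KO libraries. The 12 markers summed to 676 and 450 CPM in the WT libraries against 695, 581 and 561 CPM in the KO libraries. The 8 stromal markers summed to 707 and 1520 CPM in the WT libraries against 669, 1280 and 964 CPM in the KO libraries, so the groups overlapped. Most of this sum came from Col1a1 and Col3a1, which reached 656.04 and 683.75 CPM. Pdgfrb and Dcn reached 141.37 and 57.04 CPM. Foxd1, Tbx18, Lum and Pdgfra did not exceed 0.25, 0.56, 1.55 and 6.28 CPM. The 5 endothelial markers summed to 48.8 and 72.9 CPM in the WT libraries against 60.3, 40.0 and 46.4 CPM in the KO libraries. Emcn and Kdr made up most of this sum and reached 64.59 and 35.61 CPM. Tek, Cdh5 and Pecam1 did not exceed 1.76, 0.78 and 0.7 CPM. Of the 5 leukocyte markers, Ptprc, Adgre1 and Fcgr3 did not exceed 0.11 CPM. Cd68 lay between 1.79 and 3.15 CPM and Csf1r between 0.65 and 1.74 CPM. The part of these differences in the results below was not tested. In such bulk samples fewer cells of a type and less RNA per cell cannot be told apart.

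In the KO libraries most genes of the ER entry machinery had slightly higher mean levels than in WT, and no single member passed the test. Of the 35 members, 31 had a log2 fold change of KO over WT above 0, against 52.9% of all genes tested. The median over the members was 0.15 and over all genes 0.01, on the log2(CPM + 1) scale used for all fold changes here. The range ran from -0.04 in Dpm1, Srp72 and Ssr4 to 1.15 in Dpm3. In limma, with Benjamini-Hochberg adjustment over all genes, 0 members had an adjusted p under 0.05, against 1 of 14884 genes (0.00672%), the vault RNA Vaultrc5. At an unadjusted p under 0.05 there were 2 members, Srpr and Sec61a1, against 2.77% of all genes.

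In 10 members all 3 KO libraries exceeded both WT libraries, against 7.85% of all genes, and in 0 members all 3 lay under both, against 6.98%. These 10 were Srp14, Srp19, Srpr, Srprb, Sec61a1, Ssr2, Sec11a, Sec11c, Ddost and Ostc. Without WT replicate 2, KO replicate 1 or KO replicate 3, 18 members in each case had every remaining KO library above every remaining WT library. The shares of all genes were 20.1%, 16.4% and 23.6%. There were 13 such members without WT replicate 1 (21.5% of all genes) and 11 without KO replicate 2 (11.0%). These counts leave out members with every remaining KO library below WT, such as Srp72 and Tram1 without KO replicate 3. The counts depended on the scaling. Scaled to nuclear genes other than small RNAs, 27 of 35 members were higher (40.9% of all genes). Under that scaling 6 had every KO library above both WT libraries (4.78%). Srp19, Ssr2, Sec11a and Ostc then overlapped between the groups. Statements below on the overlap of single genes use the values as deposited. With median-of-ratios size factors 29 were higher (48.9% of all genes) and 8 had every KO library above both WT libraries (6.96%). Members are not replicates, and the list was not tested as a list. An exact rank-sum test of 2 against 3 libraries cannot go below a two-sided p of 0.2.

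**Figure D1:**
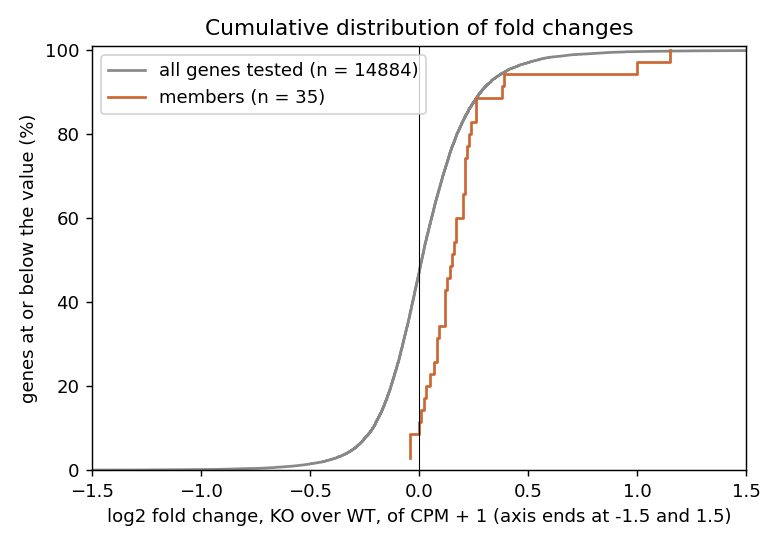
Share of genes (y axis, %) with a log2 fold change of KO over WT at or below the value on the x axis, for all 14884 genes tested (grey) and for the 35 members (orange). The median is 0.15 for the members and 0.01 for all genes, and the member line starts at -0.04.

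The shift was present in each KO library, with different numbers of members. In KO replicate 1, 19 members were above both WT libraries (39.6% of all genes) and 7 were below both (33.4%). In KO replicate 2 there were 27 above (37.3% of all genes) and 3 below (33.4%), and in KO replicate 3 there were 23 above (32.8% of all genes) and 6 below (33.7%). The median log2 difference from the WT mean was 0.12, 0.18 and 0.15 in KO replicates 1, 2 and 3, and 0.02, 0.01 and -0.00 over all genes. Between the WT libraries, as replicate 2 over replicate 1, the median log2 difference was 0.05 over the members and -0.03 over all genes. The summed level of the members was 3210 and 3330 CPM in the WT libraries against 3490, 3740 and 3770 CPM in the KO libraries, a ratio of means of 1.12.

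**Figure D2:**
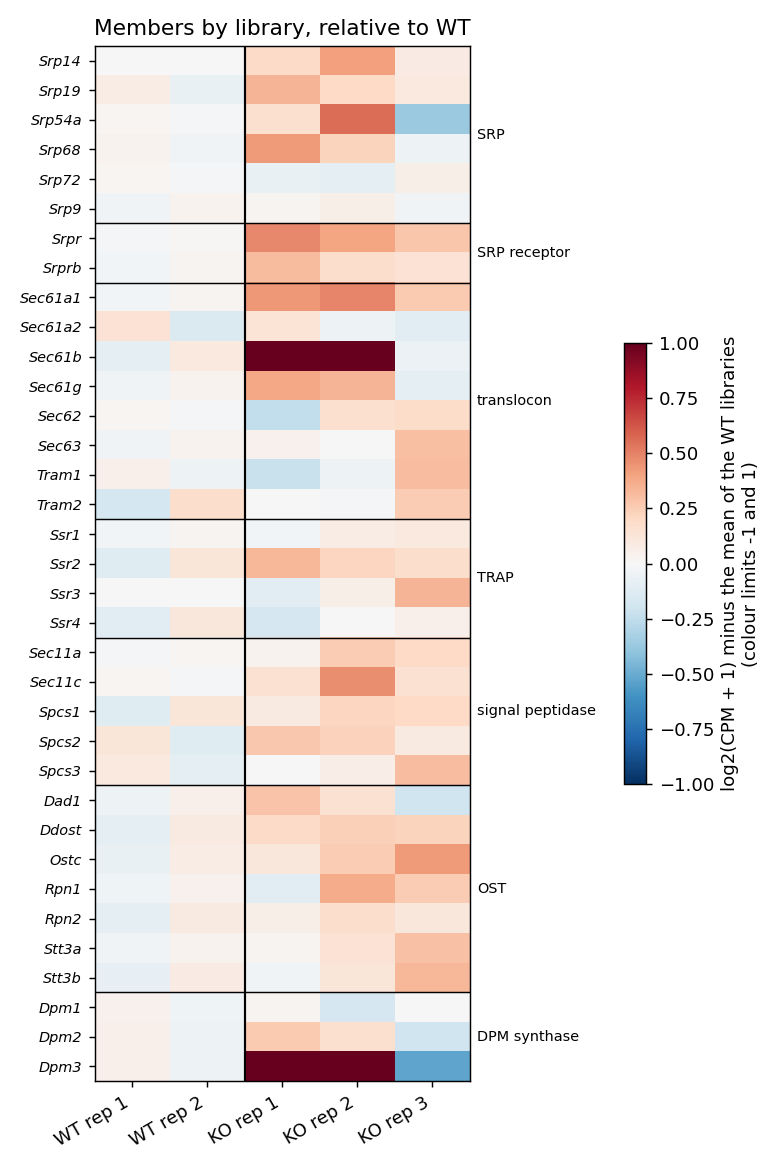
Each row is a member, grouped by role, and each column a library. Colour gives log2(CPM + 1) minus the mean of the WT libraries, with limits at -1 and 1. Srpr, Srprb and Sec61a1 are red in all 3 KO libraries, while Sec61b and Dpm3 are dark red in KO replicates 1 and 2 and not in KO replicate 3.

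Among the SRP proteins, Srp9 and Srp14 form the dimer that binds the Alu end of 7SL and slows translation. Srp9 was measured at 27.03 and 28.51 CPM in the WT libraries against 28.3, 28.97 and 27.04 CPM in the KO libraries. Its groups overlapped (log2 fold change 0.02, 95% interval -0.29 to 0.32, limma). Srp14 was measured at 40.44 and 40.86 CPM in the WT libraries against 46.56, 54.27 and 43.12 CPM in the KO libraries. Every KO library was above both WT libraries, with a log2 fold change of 0.23 (interval -0.11 to 0.57). Whether Srp9 and Srp14 differ from each other in their response was not tested.

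Srp19, which binds 7SL early in assembly, had 35.7 ± 2.69 CPM in WT and 41.6 ± 3.52 CPM in KO (SD, n = 2 and 3). Its groups did not overlap (log2 fold change 0.21). Srp68 and Srp72 form the large protein dimer of the particle. Srp68 was at 35.98 and 34.05 CPM in the WT libraries against 47.48, 41.11 and 33.81 CPM in the KO libraries, so KO replicate 3 was below both WT libraries. Srp72 was at 116.53 and 113.43 CPM in the WT libraries against 109.43, 107.1 and 119.63 CPM in the KO libraries, with overlapping groups (log2 fold change -0.04, interval -0.33 to 0.25).

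Srp54, the GTPase that holds the signal peptide, is encoded by near-identical neighbouring gene models on chromosome 12, so its values are uncertain. The table names ENSMUSG00000073079.6 and ENSMUSG00000112449.1 both Srp54a, and ENSMUSG00000079108.6 Srp54b. In GENCODE M21 the latter pair are called Srp54b and Srp54c. The first Srp54a model had 0.93 and 0.88 CPM in the WT libraries against 1.13, 1.81 and 0.47 CPM in the KO libraries, which rest on 10 to 58 reads, and the second was listed at 0 in every library. ENSMUSG00000079108.6 had 8.12 and 7.86 CPM in the WT libraries against 6.67, 8.17 and 9.69 CPM in the KO libraries. Summed over the 3 models the level was 9.05 and 8.74 CPM in the WT libraries against 7.8, 9.98 and 10.16 CPM in the KO libraries, with overlapping groups.

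The 7SL RNA has near-identical gene copies, and the sources used here do not state how reads with several matches were counted, so the values of 1 gene model are not the total of 7SL. Nearly all its counted reads were on Rn7s2. The level of Rn7s2 was 73.68 and 104.68 CPM in the WT libraries against 166.56, 169.23 and 77.97 CPM in the KO libraries. KO replicates 1 and 2 were above both WT libraries, and KO replicate 3 lay between them. Its log2 fold change was 0.56 (SE 0.36, limma, adjusted p = 1). It was 0.93 without KO replicate 3 (adjusted p = 0.252), 0.31 without WT replicate 1, 0.38 without KO replicate 1 and 0.37 without KO replicate 2. Rn7s1 was listed at 0 in 4 libraries and at 0.04 CPM in WT replicate 2, and Rn7s6 did not exceed 0.06 CPM. Both are under the level of 3 reads, 0.0639 to 0.141 CPM by library, which covers counting error alone.

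The SRP receptor had the smallest p among the members. Srpr (GRCm38 chr9:35200175-35247973, plus strand), the GTPase that meets Srp54 at the membrane, was at 48.13 and 49.08 CPM in the WT libraries against 68.26, 64.15 and 59.21 CPM in the KO libraries. All 3 KO libraries were above both WT libraries. The means were 48.6 ± 0.672 and 63.9 ± 4.53 CPM (SD, n = 2 and 3). The log2 fold change was 0.38 (SE 0.13, interval 0.09 to 0.68, limma, Benjamini-Hochberg adjusted p = 1). Srprb, the membrane-bound subunit, was at 27.82 and 28.96 CPM in the WT libraries against 35.65, 32.25 and 31.51 CPM in the KO libraries, again with no overlap. Its log2 fold change was 0.21 (interval -0.1 to 0.53, adjusted p = 1, limma). The 2 subunits summed to 76.0 and 78.0 CPM in the WT libraries against 104, 96.4 and 90.7 CPM in the KO libraries.

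**Figure D3:**
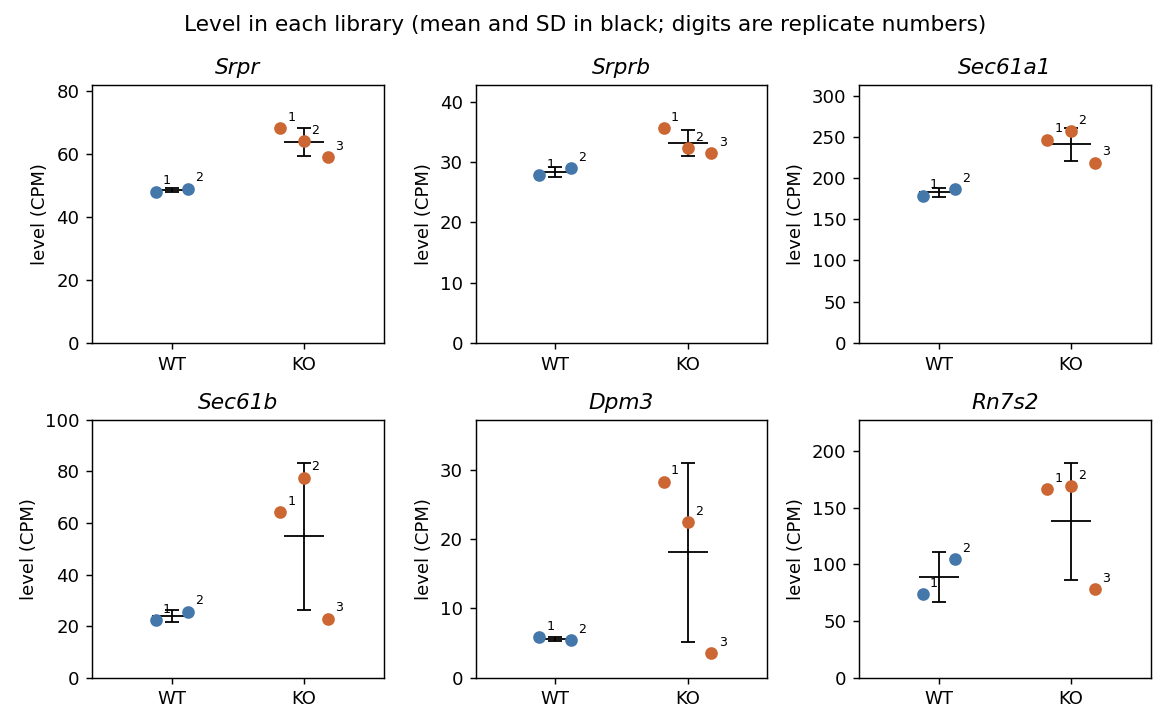
Level in CPM (y axis from 0) of Srpr, Srprb, Sec61a1, Sec61b, Dpm3 and the 7SL gene Rn7s2 in each WT (blue) and KO (orange) library, with the mean and SD in black. KO libraries lie above WT for Srpr, Srprb and Sec61a1, while KO replicate 3 lies at 22.9 CPM for Sec61b, 3.57 for Dpm3 and 77.97 for Rn7s2, near or below WT.

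In the translocon, the pore subunit and a small subunit stood apart in different ways. Sec61a1 (chr6:88503579-88518905, minus strand), which forms the channel, was at 178.76 and 186.59 CPM in the WT libraries against 246.51, 257.21 and 218.62 CPM in the KO libraries. Its groups did not overlap, with means of 183 ± 5.54 and 241 ± 19.9 CPM (SD, n = 2 and 3) and the log2 fold change was 0.39 (SE 0.13, interval 0.07 to 0.71, limma, adjusted p = 1). Its paralogue Sec61a2 was at 40.9 and 33.21 CPM in the WT libraries against 40.72, 35.55 and 34.23 CPM in the KO libraries, and a log2 fold change of -0.00 (interval -0.37 to 0.36).

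Sec61b (chr4:47474658-47483242, plus strand), a single-span subunit beside the channel, was at 22.21 and 25.59 CPM in the WT libraries against 64.12, 77.63 and 22.9 CPM in the KO libraries. KO replicates 1 and 2 were at 2.68 and 3.25 times the WT mean, and KO replicate 3 at 0.958 times, so the groups overlapped. These values rest on 479 and 729 reads in WT and 3009, 2489 and 487 reads in KO. The log2 fold change was 1.0 (SE 0.47, limma, adjusted p = 1). It was 1.53 without KO replicate 3 (adjusted p = 0.083) and 0.67 at the lowest, without KO replicate 2. Sec61g, the third subunit of the channel, had 1.32, 1.27 and 0.932 times the WT mean in KO replicates 1, 2 and 3.

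The translocon partners had log2 fold changes close to 0. Sec62 and Sec63 serve chains that enter after translation, and Tram1 and Tram2 lie beside the channel. Their log2 fold changes were 0.03, 0.12, 0.01 and 0.08, and their groups overlapped. In KO replicate 3 each exceeded both WT libraries, at 1.14, 1.24, 1.24 and 1.2 times the WT mean. The ratios were 0.842, 1.03, 0.854 and 0.996 in KO replicate 1, and 1.12, 1.0, 0.963 and 0.976 in KO replicate 2. Tram1 was below both WT libraries in KO replicates 1 and 2, and Sec62 in KO replicate 1. The 4 subunits of the translocon-associated protein complex (TRAP), which helps some signal peptides open the channel, were also near WT. Ssr2 was the one without overlap, at 134.89 and 158.99 CPM in the WT libraries against 184.5, 169.91 and 165.58 CPM in the KO libraries (log2 fold change 0.24, interval -0.08 to 0.56). Ssr1, Ssr3 and Ssr4 had log2 fold changes of 0.05, 0.09 and -0.04. Per kilobase of annotated exon, Ssr3 had the highest mean level of the members, 119 CPM per kb, followed by Ssr2 with 87.3.

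All 5 signal peptidase genes were higher in KO on average, by 0.13 to 0.26 on the log2 scale, and none passed. Sec11a and Sec11c are the alternative catalytic subunits. Sec11a was at 62.51 and 64.49 CPM in the WT libraries against 65.02, 75.97 and 73.12 CPM in the KO libraries, and Sec11c at 11.69 and 11.41 CPM in the WT libraries against 12.98, 16.31 and 12.98 CPM in the KO libraries. Neither overlapped between the groups. The accessory subunits Spcs1, Spcs2 and Spcs3 overlapped, at 1.12, 1.15 and 1.09 times WT as a ratio of means. Summed over the 5 genes the level was 327 and 319 CPM in the WT libraries against 346, 370 and 373 CPM in the KO libraries.

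The 7 OST genes were likewise all higher in KO on average, with log2 fold changes from 0.08 to 0.26 and none past the threshold. Ddost, a shared subunit, was at 116.25 and 132.38 CPM in the WT libraries against 141.71, 146.55 and 144.7 CPM in the KO libraries. Ostc, which belongs to the OST form attached to the translocon, was at 129.65 and 143.86 CPM in the WT libraries against 148.1, 162.8 and 183.82 CPM in the KO libraries. Both had no overlap between groups. The catalytic subunits Stt3a, which acts during translocation, and Stt3b, which acts on sites passed over, had log2 fold changes of 0.15 and 0.14 with intervals of -0.17 to 0.48 and -0.22 to 0.5. Rpn1, Rpn2 and Dad1 had 0.17, 0.12 and 0.08, and their groups overlapped. Dad1 was below both WT libraries in KO replicate 3, at 0.871 times the WT mean.

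**Figure D4:**
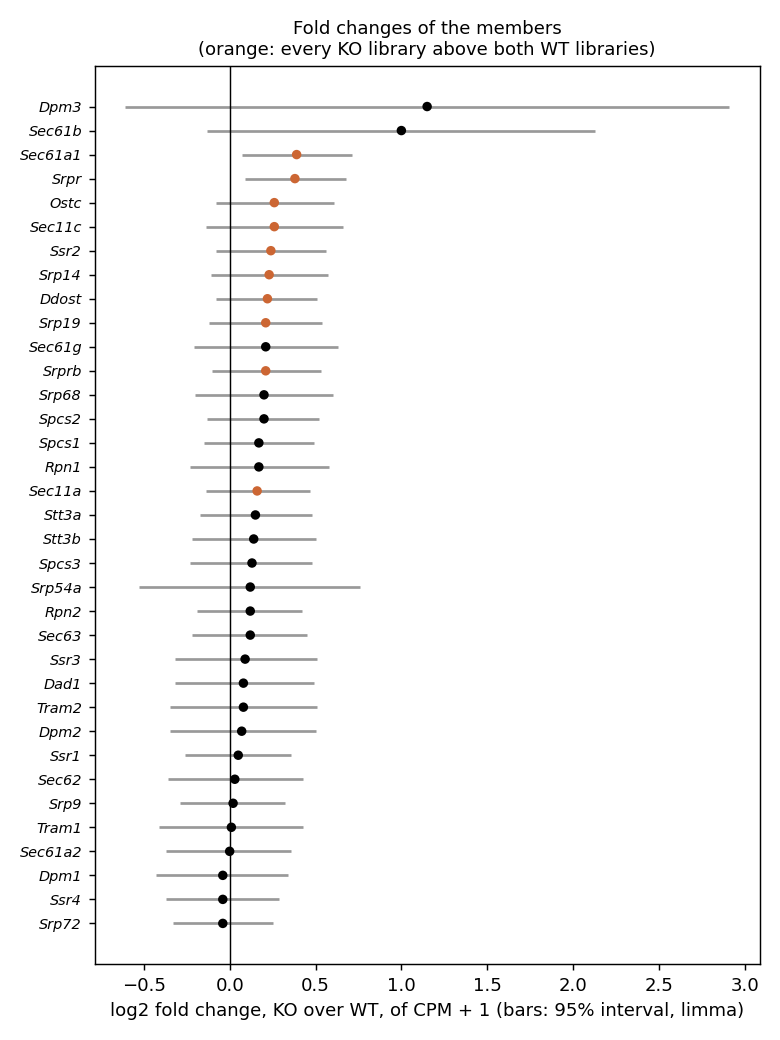
Log2 fold change of KO over WT for each member (points) with its 95% interval (bars) from limma, ordered by size. Members whose groups do not overlap are orange. The intervals of Srpr (0.09 to 0.68) and Sec61a1 (0.07 to 0.71) lie above 0, and those of Sec61b and Dpm3 are the widest.

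Of the dolichol-phosphate-mannose synthase genes, the catalytic subunit Dpm1 and the membrane subunit Dpm2 overlapped between groups, with log2 fold changes of -0.04 and 0.07. Dpm3 (chr3:89259358-89267079, plus strand), which tethers Dpm1 to the membrane, was at 5.84 and 5.37 CPM in the WT libraries against 28.32, 22.46 and 3.57 CPM in the KO libraries. KO replicates 1 and 2 were at 5.05 and 4.01 times the WT mean, and KO replicate 3 was below both WT libraries at 0.637 times. The reads behind these levels numbered 126 and 153 for WT, 1329, 720 and 76 for KO. The log2 fold change was 1.15 (SE 0.74, limma, adjusted p = 1). It was 1.99 without KO replicate 3 (adjusted p = 0.0664) and 0.65 without KO replicate 1.

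Sec61b, Dpm3 and Rn7s2 thus shared a pattern across libraries that did not follow genotype alone. A criterion was set after these values had been seen: KO replicates 1 and 2 both at least 1.5 times the highest of the other 3 libraries. It was met by 2 of 35 members and by 294 of all genes (1.98%), Rn7s2 among them. The share of Rn7sk given above was also highest in KO replicates 1 and 2. The 294 genes had a median of 1544 bases of annotated exon, against 4100.5 for all genes tested. Sec61b has 1271 bases and Dpm3 919, while the member Srp14, with 1195 bases, did not meet the criterion. The part of these features in the result was not tested.

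Neighbouring genes were compared with Sec61b and Dpm3, chosen after their values had been seen. Alg2, a mannosyltransferase gene of glycan assembly, has a gene model 324 bases from that of Sec61b on the opposite strand. Its level was 34.32 and 26.19 CPM in the WT libraries against 32.52, 26.26 and 30.47 CPM in the KO libraries, so it did not share the pattern of Sec61b. Krtcap2, an OST subunit gene whose model lies 9451 bases from that of Dpm3, was at 31.3 and 42.86 CPM in the WT libraries against 68.36, 67.34 and 28.87 CPM in the KO libraries. It met the same criterion as Dpm3.

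The bases upstream of these starts are shown because Sec61b and Dpm3 were high in KO replicates 1 and 2, and Srpr in all 3 KO libraries. Each is the 250 bases before the RefSeq start (GRCm38.p6), and capitals mark CCAAT or its reverse complement ATTGG.
Sec61b upstream: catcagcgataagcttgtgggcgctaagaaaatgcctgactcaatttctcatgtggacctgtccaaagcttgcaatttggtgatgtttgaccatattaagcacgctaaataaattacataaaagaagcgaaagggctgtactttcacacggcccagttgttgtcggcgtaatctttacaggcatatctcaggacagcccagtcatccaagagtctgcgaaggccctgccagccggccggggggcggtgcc
Dpm3 upstream: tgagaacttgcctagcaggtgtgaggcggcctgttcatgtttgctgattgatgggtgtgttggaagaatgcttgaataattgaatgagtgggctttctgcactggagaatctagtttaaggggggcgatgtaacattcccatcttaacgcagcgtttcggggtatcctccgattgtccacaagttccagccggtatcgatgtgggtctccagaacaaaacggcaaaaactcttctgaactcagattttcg
Srpr upstream: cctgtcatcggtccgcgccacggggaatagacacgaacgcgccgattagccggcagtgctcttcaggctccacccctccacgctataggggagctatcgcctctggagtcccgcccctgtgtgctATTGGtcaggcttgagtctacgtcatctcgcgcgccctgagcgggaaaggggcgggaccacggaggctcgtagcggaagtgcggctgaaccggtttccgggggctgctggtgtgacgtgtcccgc
They span chr4:47474411-47474660, chr3:89266211-89266460 and chr9:35210953-35211202, all on the plus strand. The stretches of Dpm3 and Srpr lie inside the GENCODE gene models given above, so they are not upstream of the whole models. RefSeq promoter windows, from 250 bases before to 50 after the start, were matched for 27 of the 35 members. On either strand CCAAT was found in 14 of these 27 (51.9%), against 37.4% of all 32851 windows. A member was counted if any of its windows matched, while the second share counts single windows, so the 2 shares are not alike. Of the ER stress response motifs, ERSE, ERSE-II and the UPR element TGACGTGG were each found in 0 of the 27. They occur in 0.119%, 0.0365% and 0.676% of all windows. Among the other genes of the pathway the first was found in Alg12, Calr and Canx, the second in Krtcap2 and the third in Pigp. ERSE contains CCAAT, so its matches overlap those of CCAAT. A match or its absence describes these windows only.

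The authors' own test was set beside these values. In the authors' deposited table Sec61b had a log2 fold change of 1.2 (p = 0.0211), Dpm3 of 1.69 (p = 0.0458) and Srpr of 0.39 (p = 0.0426), each with an FDR of 1. These 3 were the members with p under 0.05 in the authors' deposited table, against 3.03% of the genes past the filter, and 0 members had an FDR under 0.05, against 0.0315% of all rows.

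The rest of the pathway was followed through 87 measured genes of further lists, of which 66 were higher in KO and 14 exceeded both WT values in all KO libraries, against the 52.9% and 7.85% of all genes given above. Scaled to nuclear genes 50 of the 87 were higher, against 40.9% of all genes under that scaling. None passed over all genes (limma), and 4 had an unadjusted p under 0.05, against 2.77% of all genes. Of these, 3 belong to the 13 genes of glycan trimming and lectin binding, of which 10 were higher and 5 did not overlap. Mogs, the glucosidase that removes the first glucose, was at 29.35 and 25.21 CPM in the WT libraries against 49.33, 44.38 and 38.51 CPM in the KO libraries. All KO libraries were above WT (log2 fold change 0.67, SE 0.16, limma, adjusted p = 1). Edem2, which takes part in mannose trimming of misfolded glycoproteins, was at 6.12 and 6.46 CPM in the WT libraries against 9.08, 10.32 and 8.79 CPM in the KO libraries. The lectin chaperone gene Calr was at 431.53 and 506.89 CPM in the WT libraries against 601.19, 774.34 and 661.69 CPM in the KO libraries (log2 fold change 0.53). Both also had no overlap between groups.

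The 24 genes that build the lipid-linked glycan were near the background, with 15 higher, 2 without overlap and a median log2 fold change of 0.04. Dpagt1, which starts the glycan, was at 15.44 and 15.1 CPM in the WT libraries against 21.31, 21.05 and 17.78 CPM in the KO libraries (log2 fold change 0.37, limma, adjusted p = 1). Gmppa and Gmppb, of GDP-mannose supply, had log2 fold changes of 0.25 and 0.26. Of the 5 further OST subunits, 4 were higher, and Tusc3 was lower in all KO than in all WT libraries, at 39.83 and 41.74 CPM in the WT libraries against 36.4, 36.96 and 35.83 CPM in the KO libraries. Ost4 had a log2 fold change of 0.26.

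Further genes of membrane insertion, GPI anchoring and O-mannosylation were compared as well. Of all genes, 52.9% were higher and 7.85% had all KO libraries above WT. Scaled to nuclear genes, the share of all genes higher was 40.9%. Of 17 genes of the ER membrane complex and the multipass translocon, 12 were higher (10 under the nuclear scaling) and 4 did not overlap. Emc3, a core subunit of the former, was at 38.77 and 43.22 CPM in the WT libraries against 46.18, 53.67 and 54.97 CPM in the KO libraries, and Tmco1 and Ncln had log2 fold changes of 0.29 and 0.49. Of 7 genes of tail-anchor insertion, a route that bypasses the SRP, 6 were higher (4 under the nuclear scaling) and 0 were without overlap. Sgta and Bag6, cytosolic chaperones of that route, had log2 fold changes of 0.36 and 0.34, with KO replicate 3 below both WT libraries in each, and Wrb had -0.12. Among 19 genes of GPI anchoring and O-mannosylation, pathways that dolichol-phosphate mannose serves, 17 were higher (12 under the nuclear scaling) and 3 did not overlap. Gpaa1 met the 1.5-times criterion (log2 fold change 0.47), and Pigu and Pigp had 0.21 and 0.21. Naca and Btf3, which keep other chains off the SRP route, had 0.06 and 0.14.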

How the data were processed

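Total RNA of 5 libraries was sequenced as single-end 50-base reads after stranded library preparation, per the labels' protocols. Per the submitters' processing notes the authors used HISAT2 2.1.0, featureCounts, edgeR 3.20.1 and mm10 (GRCm38). The sources used here do not state the annotation release, the strand setting or the handling of reads with several matches. The deposited library columns hold signal values: CPM over a library size that the authors adjusted. Beside them the authors' deposited table holds log2 fold changes and log2 mean CPM, a score (likelihood ratio), p-values and FDR.

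Gene positions and exon lengths came from GENCODE M21, which holds 98.79% of the table's IDs. Depth was read from steps of 1 read in the low values. Within 0.0055 CPM of a whole read lay 98.72% to 100.0% of values under 100 CPM. The stricter rule for a count test, 95% of values up to 20 reads within 0.1 of a read, was met in 1 library (45.0% to 95.4%), so no count model was run.

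Differences were fitted with limma 3.58.1 (R 4.3.3, with a mean-variance trend), genotype being the only term. Values were log2(CPM + 1), for genes at 0.5 CPM or more in at least 2 libraries. P-values are two-sided, adjusted by Benjamini-Hochberg over all genes, with a threshold of 0.05. On simulated data for this comparison (14567 genes, coefficient of variation 16.5%), 20% of genes changed 1.5-fold, 72% of those changed 2-fold and 100% of those changed 4-fold or 8-fold were recovered. That run gave 155 calls, 9 of them false, against 1 call in the measured libraries. Dis3l2 itself, at a log2 fold change of -1.24, did not pass in the measured libraries. The recovered shares therefore describe the simulated data only. Some sequences are not reported here. The members and lists were chosen with earlier results of these data known. Named were all members, Dis3l2, the 7SL and Srp54 genes, and up to 3 genes with the smallest p per further list. Alternatives were other pseudocounts, scalings and filters, each library left out, and a replicate block.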

Additional observations from a re-analysis of the deposited data

How the results depend on the processing

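Over all genes the number past the threshold was 1, and it was 0 with no filter on low values, with a pseudocount of 5 and with median-of-ratios size factors, and 0 to 8 without each library in turn. The number of members past the threshold was 0 under each of these, and under a pseudocount of 0.5 and the nuclear scaling. The number of members higher in KO stayed between 27 and 31 under every alternative run, and between 28 and 31 without each library. Members with every KO library above every WT library numbered 10, and 6 under the nuclear scaling (4.78% of all genes). With median-of-ratios size factors they numbered 8 (6.96%). They numbered 11 to 18 without each library (11.0% to 23.6% of all genes), where fewer libraries have to be ordered.

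The WT and KO titles share replicate numbers 1 and 2, but nothing says what a number stands for. Deviations from the group means correlated at 0.414 for the libraries numbered 1 and 0.537 for those numbered 2, and with 2 WT libraries these checks are not independent. With a replicate block limma called 390 genes, 339 higher and 51 lower, and 2 members, Sec61b (1.53, adjusted p = 0.00796) and Dpm3 (1.99, adjusted p = 0.0095). KO replicate 3 has no partner, so the block leaves it out of the estimate. The main fit leaves 3 residual degrees of freedom for the spread, and the block leaves fewer. The libraries numbered 1 also differed in Xist, at 0.93 CPM in WT and 872 CPM in KO. Of the other genes named here the block called Rn7s2 (0.93, adjusted p = 0.0396) and, by adjusted p, Dis3l2 (0.0278), Mogs (0.0297), Ncln (0.0303), Sgta (0.0396), Gpaa1 (0.0415), Bag6 (0.0418) and Krtcap2 (0.043). Rn7s2 was at 0.31 to 0.93 without each library.

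Signs turned for genes near 0. With the block the log2 fold change was -0.03 for Ssr3, -0.01 for Tram2, -0.04 for Sec62, -0.14 for Tram1, 0.04 for Sec61a2 and -0.10 for Srp54b. With the nuclear scaling it was -0.01 for Ssr1, -0.03 for Sec62, -0.05 for Tram1, -0.05 for Srp9, -0.04 for Srp54b and -0.01 for Naca. With median-of-ratios factors it was -0.01 for Tram1, -0.00 for Srp9 and -0.00 for Srp54b. Without each library the ranges were -0.11 to 0.36 for Srp54a, -0.03 to 0.20 for Ssr3, -0.02 to 0.22 for Dad1, -0.02 to 0.21 for Dpm2, -0.10 to 0.26 for Tram2, -0.04 to 0.17 for Sec62, -0.15 to 0.08 for Ssr4, -0.09 to 0.02 for Dpm1, -0.14 to 0.13 for Tram1, -0.02 to 0.05 for Srp9, -0.15 to 0.14 for Sec61a2, -0.10 to 0.14 for Srp54b, -0.25 to 0.03 for Wrb, -0.03 to 0.14 for Naca and -0.21 to 0.17 for Alg2. The cause was not tested. The planned count models were not run, since the deposited values did not meet the rule for whole reads.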
